A study of Homo sapiens with 12 samples.

Results

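Genes that carried more RNA in Bag-1L KO LNCaP cells than in control LNCaP cells, whatever the hormone supply, are described here. LNCaP is an established human prostate cancer line whose growth depends on androgen. In the KO line, a TALEN (a designed nuclease) had cut away the start codon of Bag-1L, the longest protein form of the BAG1 gene, and the start codons of the shorter forms were kept. The KO cells had been isolated as single clones by serial dilution, so a difference between the lines cannot be told apart from a difference between clones. Both the KO line and its TALEN control line were grown in full medium (FM), which contains serum hormones, or were deprived of hormone for 72 h in charcoal-stripped serum. The deprived cells then received either the vehicle ethanol (EtOH) or the potent androgen dihydrotestosterone (DHT, 10 nM) for 16 h. Each of the 6 combinations of line and condition was sequenced in 2 replicates, 12 samples in all. Nothing in the labels says whether replicates were separate cultures, so the p-values below measure the spread between these samples, which may be technical.

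Members were chosen by their CPM, the count of a gene divided by the summed gene counts of its sample and scaled to 1000000. A member had a mean of at least 1 CPM over the 12 samples, and in each of the 3 conditions its lower KO replicate was at least 1.5 times its higher control replicate. Genes on chromosome 8 were not analysed here. The rule gave 159 genes out of 13624 with a mean of at least 1 CPM, which is 1.17%, and out of 63677 gene identifiers in all. The same rule with the lines exchanged gave 61 genes, or 0.448%. Both counts rest on summed gene counts as the scale, and the exchanged rule was not counted with another scale. In single conditions, 5.56% of the 13624 genes met the rule in FM, 2.75% in EtOH and 4.76% in DHT, so EtOH was the condition that held most genes back. Because these values chose the members, every difference between KO and control below is a description and carries no test. Differences between conditions within a line were not used by the rule and were tested.

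Bag-1 proteins are cochaperones. They bind the Hsp70 family of chaperones, drive the exchange of its nucleotide and thereby help release client proteins, and Bag-1L is the form that enters the nucleus. Androgen raises some prostate genes, such as those for secretory proteins, and lowers others, many of which are most active when androgen is withdrawn. A gene that is higher in KO cells may therefore belong to the hormone-responsive part of the transcriptome or lie outside it, and the DHT and FM comparisons separate these cases by measurement.

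Gene counts totalled between 20826843 and 30354666 per sample, at which 3 counts, taken as the floor of detection, equal 0.0988 to 0.144 CPM. Of the 6 replicate pairs, that of control EtOH differed most. BAG1 mRNA was 83.0 and 76.3 CPM in control FM against 59.5 and 64.0 in KO FM, 72.0 and 105.9 against 50.6 and 47.0 in EtOH, and 83.6 and 95.7 against 43.9 and 44.4 in DHT. It was lower in every KO sample, and the cause was not tested. The deletion took the Bag-1L start codon with flanking regions and left the start codons of the shorter forms, so this mRNA level does not check it. The luminal prostate markers KLK3 and HOXB13 were above 1 CPM in both lines. Of the markers of other cell types, 1 of 6 for basal epithelium (LAMB3), 2 of 7 for neuroendocrine cells (SYP and NCAM1), 2 of 7 for fibroblasts (COL1A1 and PDGFRB), 1 of 3 for endothelium (VWF) and 0 of 6 for leukocytes reached that level. The neuroendocrine markers summed to 1.96 to 4.26 CPM in control and 3.44 to 5.21 CPM in KO samples, and INSM1 and NEUROD1 were at or below the floor in both lines.

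The members were mostly scarce transcripts. Their median of the mean CPM was 4.74, against 26.7 for all 13624 genes, and per kilobase of exon the medians were 1.17 and 5.20 CPM. Of the 159 genes, 136 lay below 20 CPM and 10 reached 100 CPM. Among them, 129 were protein-coding, 20 were long noncoding RNAs, 9 were pseudogenes of several kinds and 1 was not in the annotation used. The median fold of KO over control, taken from group means, was 2.53 in FM, 2.35 in EtOH and 2.59 in DHT. A fold of at least 2 in all 3 conditions was reached by 95 genes and a fold of at least 4 by 12. The largest of the 3 folds fell in DHT for 71 members, in FM for 57 and in EtOH for 31, counted on the CPM scale alone. Just inside the limit of 1.5 were a long noncoding RNA (ENSG00000262884, ratio of lowest KO to highest control 1.5), the ceramide synthase CERS4 (1.506) and the guanine nucleotide exchange factor MCF2L (1.508). Just outside lay LINC00882 (1.497), ANKRD31 (1.494) and the collagen COL23A1 (1.493).

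The 12 members of at least 5 mean CPM with the widest gap between the lines were, in order, MYD88, EPHA3, SPOCK2, PLA2G2A, CACNA1H, GPER1, SLC16A3, DDC, SNCG, PRRT2, IGF1 and MCCC2. They code for proteins of unlike function, from a signalling adaptor to a mitochondrial enzyme, and are described with the genes closest to them in role. Groups by role were formed after the values were seen and hold 74 of the 159 members.

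**Figure D1:**
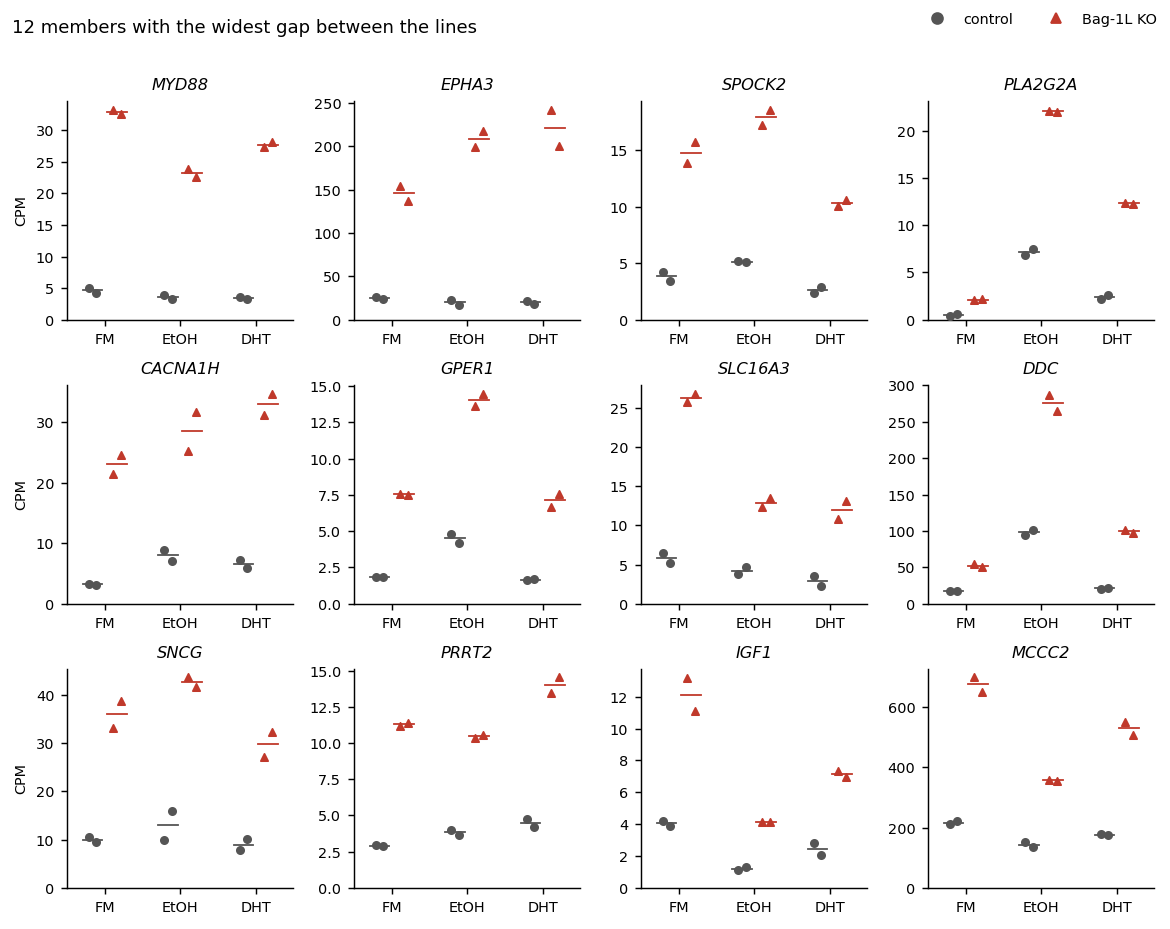
CPM of the 12 members with the widest gap between the lines, on linear axes that start at 0, in FM, EtOH and DHT. Each grey circle is a control sample, each red triangle a KO sample, and each bar the mean of 2 samples. KO and control samples do not overlap in any panel, as the rule requires, while the effect of the condition differs from gene to gene: DDC and PLA2G2A are highest in EtOH, and MCCC2 and IGF1 are highest in FM.

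Innate immunity and interferon genes made up a group of 9, with median folds of 2.53 in FM, 2.76 in EtOH and 3.12 in DHT. MYD88, the adaptor that carries signals from Toll-like and interleukin-1 receptors, had the widest gap of all members at 5 CPM or more. Its level was 5.03 and 4.22 CPM in control FM against 33.2 and 32.6 in KO FM, 3.87 and 3.31 against 24.0 and 22.6 in EtOH, and 3.57 and 3.23 against 27.3 and 28.1 in DHT. Every KO sample was thus several times any control sample. The change with DHT did not pass the test in control (log2 0.05) or KO cells (log2 0.33). Of the list of 43 Toll-like receptor, MYD88 and NF-kappaB pathway genes, 26 were measured, with a mean of at least 1 CPM. MYD88 was the sole member among these (3.85%, against 1.17% of all 13624 genes). Genes of the list below 1 CPM could not be judged by the rule. The median log2 difference between KO and control over those 26 genes was 0.016 in FM, 0.107 in EtOH and 0.087 in DHT.

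From the list of interferon-stimulated genes, 4 of 22 measured genes (18.2%) were members, against 1.17% of all 13624 genes: HERC6, DTX3L, PARP9 and IFITM1. HERC6, a HECT-domain ligase of the family that attaches ISG15, lay at 0.242 and 0.156 CPM in control EtOH against 2.30 and 2.40 in KO EtOH, and at 0.269 and 0.440 against 4.25 and 3.66 in DHT. DTX3L and PARP9 form a complex that joins ubiquitin ligase and ADP-ribosyltransferase activity, and both were about as far apart between the lines. DTX3L had 9.02 and 7.32 CPM in control EtOH against 19.3 and 20.6 in KO EtOH, and PARP9 had 7.97 and 6.43 against 18.1 and 16.9. IFITM1, a membrane protein that restricts virus entry, had 2.05 and 1.56 CPM in control EtOH against 3.55 and 3.77 in KO EtOH. Over the whole interferon list the median log2 difference between the lines was -0.021 in FM, 0.053 in EtOH and 0.034 in DHT, so the middle of the list lay close to equal levels in both lines. None of the 13 measured antigen presentation genes was a member, and at a share of 1.17% a list this short mostly holds few or none.

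The remaining immune members bind sugars, microbes or antibody. LGALS3BP, a secreted galectin-binding protein, had 13.2 and 10.9 CPM in control EtOH against 33.1 and 33.6 in KO EtOH. COLEC12, a scavenger receptor with a collectin domain, had 11.3 and 9.16 against 31.4 and 32.5, and in DHT 2.46 and 3.30 against 9.03 and 8.90. CLEC7A, the beta-glucan receptor dectin-1, and PIGR, which carries polymeric immunoglobulin across epithelia, were scarcer, with KO EtOH levels of 3.12 and 4.25 CPM and of 4.03 and 4.81 CPM.

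Since these genes share a response to interferon in other settings, the RefSeq promoters of the members were searched for an interferon-type element, spelled as 2 copies of GAAA with any 2 bases between them, on both strands. Promoters run from 250 bases before to 50 bases after the transcription start (GRCh38.p14, 300 bases), and 113 members and 10307 measured genes were matched by symbol. The element was found in 8 of the 113 member promoters (7.08%) and in 2.49% of the 10307. Among genes below 20 CPM the shares were 8.51% of 94 members and 2.73% of 3816 genes. The 8 members were AMPH, DTX3L, EPHA4, IFITM1, LGALS3BP, MAPK10, MYD88 and PRAMEF12. The promoters of the 4 immune genes among them are printed 5′ to 3′ on the strand of the gene, with the element in capitals. They lie at chr3:38138411-38138710 (MYD88, + strand), chr3:122564088-122564387 (DTX3L, + strand), chr11:313790-314089 (IFITM1, + strand) and chr17:78979874-78980173 (LGALS3BP, - strand).
MYD88: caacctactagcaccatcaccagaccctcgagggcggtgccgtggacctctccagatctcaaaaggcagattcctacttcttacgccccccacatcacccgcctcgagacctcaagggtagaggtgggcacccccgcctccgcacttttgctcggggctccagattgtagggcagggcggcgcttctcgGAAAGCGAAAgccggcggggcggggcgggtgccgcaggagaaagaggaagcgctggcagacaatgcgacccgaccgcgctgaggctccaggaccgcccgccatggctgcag
DTX3L: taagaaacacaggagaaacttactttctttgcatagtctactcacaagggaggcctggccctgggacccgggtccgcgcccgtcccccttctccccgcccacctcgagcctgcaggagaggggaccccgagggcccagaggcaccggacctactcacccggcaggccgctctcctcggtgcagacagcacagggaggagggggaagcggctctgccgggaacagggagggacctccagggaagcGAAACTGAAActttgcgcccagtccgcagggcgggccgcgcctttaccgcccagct
IFITM1: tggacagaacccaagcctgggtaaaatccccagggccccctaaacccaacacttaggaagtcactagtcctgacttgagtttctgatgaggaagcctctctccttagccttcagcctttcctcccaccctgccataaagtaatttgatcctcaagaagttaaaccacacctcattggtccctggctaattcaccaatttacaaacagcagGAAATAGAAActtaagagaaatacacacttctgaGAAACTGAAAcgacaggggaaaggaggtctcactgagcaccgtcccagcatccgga
LGALS3BP: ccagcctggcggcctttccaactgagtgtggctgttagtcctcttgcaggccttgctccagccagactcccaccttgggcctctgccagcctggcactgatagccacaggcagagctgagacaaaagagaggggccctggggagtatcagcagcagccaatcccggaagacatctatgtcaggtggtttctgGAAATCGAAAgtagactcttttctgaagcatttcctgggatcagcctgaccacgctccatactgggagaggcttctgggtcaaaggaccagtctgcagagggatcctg
The element began 61 bases before the start site in MYD88, 58 before in LGALS3BP, 6 before in DTX3L, and 40 and 6 before in IFITM1, which held 2 matches. All 5 matches were on the strand of the gene. HERC6 and PARP9 were among the interferon genes without this match in their windows. The PARP9 window, at chr3:122564735-122565034 (- strand), lies close to that of DTX3L and does not reach the DTX3L match. A match is a description of the letters and not evidence of binding.

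Ephrin signalling was the most populated of the pathway lists, with 4 of 19 measured genes (21.1%), where 1.17% of all 13624 genes were members. The lists were chosen with earlier results of these data known, so this rank is a description only. Ephrins and Eph receptors sit on opposing cells, signal in both directions on contact and steer cell sorting and axon growth. EPHA3, a receptor of A-type ephrins, had 25.6 and 23.8 CPM in control FM against 154 and 137 in KO FM, 22.8 and 16.8 against 199 and 217 in EtOH, and 21.5 and 18.4 against 241 and 200 in DHT. These are folds of 5.90, 10.5 and 11.04, the largest of any member above 100 mean CPM. EFNA5, an A-type ephrin that EPHA3 can bind, had 223 and 217 CPM in control FM against 532 and 489 in KO FM, 245 and 222 against 585 and 572 in EtOH, and 256 and 248 against 633 and 632 in DHT. Ligand and receptor were thus both higher in KO cells, and per kilobase of exon the ligand was the more abundant, with 100 CPM against 29.1 CPM over the KO samples. EPHB6, a receptor without kinase activity, had 5.44 and 5.73 CPM in control EtOH against 14.1 and 12.8 in KO EtOH, and EPHA4 had 1.61 and 1.60 against 2.98 and 2.84. The remaining 15 measured ephrin genes did not meet the rule, and the median log2 difference over all 19 was 0.242 in FM, 0.101 in EtOH and 0.155 in DHT. Other members with a role in axon guidance were the plexin PLXNB3, the secreted semaphorin SEMA3F and DPYSL3, a cytosolic mediator of semaphorin signals, with folds between 1.71 and 2.28.

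Synapse and vesicle release genes formed the largest group, with 10 members and median folds of 2.47 in FM, 2.49 in EtOH and 3.05 in DHT. SNCG, a synuclein, had 9.91 and 16.0 CPM in control EtOH against 43.6 and 41.8 in KO EtOH, and 7.75 and 10.1 against 27.2 and 32.4 in DHT. PRRT2, which restrains synaptic vesicle fusion, had 3.99 and 3.66 against 10.4 and 10.6 in EtOH. It shares 28.35% of its 50-base transcript words with annotated transcripts of other genes, so its count is less certain. PPFIA2, a scaffold of the active zone, had 167 and 127 CPM in control EtOH against 316 and 334 in KO EtOH. The group further held the secreted synapse organizer CBLN2, the active zone protein RIMS1, the calcium sensors SYT9 and DOC2A, the endocytic protein AMPH, the exchange factor KALRN and the actin-binding PPP1R9A. The neuroendocrine markers SYP and NCAM1 were not members, and the values of that marker list are given above. Its part in these differences was not tested.

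Neural adhesion molecules added 5 members. NCAM2, a cell adhesion molecule of the immunoglobulin superfamily, had 134 and 107 CPM in control EtOH against 316 and 313 in KO EtOH, and 45.0 and 44.9 against 227 and 186 in DHT. EGFLAM, a matrix protein of the photoreceptor synapse, was close to absent from control cells. It had 4 or fewer control counts in each FM and EtOH library against 1.99 and 1.91 CPM in KO FM and 2.83 and 2.28 CPM in KO EtOH. SDK2, NFASC and ASTN1, which act in cell recognition, axon domains and neuron migration, had folds between 1.62 and 2.78.

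Ion channel genes described here numbered 6. CACNA1H, the pore of a T-type calcium channel, had 3.25 and 3.13 CPM in control FM against 21.5 and 24.6 in KO FM, 8.86 and 7.09 against 25.3 and 31.7 in EtOH, and 7.17 and 5.87 against 31.3 and 34.7 in DHT. It was the sole member among 7 measured calcium channel genes (14.3%), where 1.17% of all 13624 genes were members. The potassium channel KCNH6 and the auxiliary potassium channel subunit KCNMB4 had folds between 2.23 and 3.18. STAC, an adaptor of voltage-gated calcium channels, had 0.725 and 0.623 CPM in control EtOH against 9.80 and 9.26 in KO EtOH. The hyperpolarization-activated channel HCN2 and the glutamate receptor subunit GRIN1 had folds between 1.60 and 2.67.

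Solute carriers had 7 among 217 measured genes (3.23%), where 1.17% of all 13624 genes were members. SLC16A3 exports lactate. It had 6.50 and 5.21 CPM in control FM against 25.7 and 26.7 in KO FM, 3.79 and 4.64 against 12.3 and 13.5 in EtOH, and 3.57 and 2.31 against 10.8 and 13.1 in DHT. None of 18 measured hypoxia and glycolysis genes was a member, and at a share of 1.17% a list this short mostly holds few or none. SLC6A19, a neutral amino acid transporter, had 4.87 and 3.31 CPM in control EtOH against 14.98 and 12.5 in KO EtOH, and its fold was 7.03 in DHT. SLC12A7, a potassium chloride cotransporter, had 94.1 and 92.2 CPM in control EtOH against 164 and 165 in KO EtOH. SLC6A6 (taurine), SLC16A9, SLC24A3 and SLC51A had folds between 1.82 and 3.99.

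Hormones, growth factors and their receptors gave 6 members with median folds of 3.61, 3.09 and 3.24 in FM, EtOH and DHT. GPER1, a membrane receptor that responds to oestrogen, had 4.83 and 4.21 CPM in control EtOH against 13.6 and 14.5 in KO EtOH, and 1.61 and 1.72 against 6.69 and 7.55 in DHT. IGF1, the growth factor ligand of the IGF1 receptor, had 4.20 and 3.89 CPM in control FM against 13.2 and 11.1 in KO FM, 1.09 and 1.32 against 4.13 and 4.13 in EtOH, and 2.84 and 2.05 against 7.35 and 6.96 in DHT. FGFR3 was the sole member among 19 measured genes of the receptor tyrosine kinase list (5.26%), where 1.17% of all 13624 genes were members. That list does not hold the Eph receptors. FGFR3 had 1.85 and 1.44 CPM in control EtOH against 2.98 and 2.84 in KO EtOH. VEGFB, WNT9A and AMHR2, the receptor of anti-Müllerian hormone, completed the group.

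Steroid and amine synthesis was represented by CYP11A1, HSD17B6 and DDC. CYP11A1, the mitochondrial enzyme that cleaves the side chain of cholesterol and starts steroid synthesis, had 0.121 and 0.156 CPM in control EtOH, near the floor, against 0.864 and 0.801 in KO EtOH. It had 0.953 and 1.47 CPM in control FM against 13.9 and 12.99 in KO FM. HSD17B6, a hydroxysteroid dehydrogenase that acts on androgen metabolites, had 2.01 and 2.18 CPM in control EtOH against 4.51 and 3.53 in KO EtOH. They were 2 of 19 measured genes of the androgen metabolism list (10.5%). DDC, which makes dopamine and serotonin from their amino acid precursors, had 94.4 and 102 CPM in control EtOH against 287 and 265 in KO EtOH, and 20.5 and 22.0 against 102 and 97.8 in DHT. It was 1 of 11 measured genes of the androgen-repressed list (9.09%), and 0 of 30 measured genes of the androgen-induced list were members. Over all 13624 genes the share was 1.17%, so member counts in lists this short do not separate the 2 classes. The median log2 difference between KO and control over the androgen-repressed list was -0.202 in FM, 0.875 in EtOH and 0.679 in DHT. Over the androgen-induced list it was -0.022, -0.317 and -0.200. The lists were chosen with earlier results of these data known, so these medians are a description.

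Among lipid and intermediary metabolism genes, PLA2G2A, a secreted phospholipase, had 6.81 and 7.48 CPM in control EtOH against 22.1 and 22.0 in KO EtOH, and in FM 0.390 and 0.604 against 2.10 and 2.14. MCCC2, a subunit of the mitochondrial carboxylase of leucine breakdown, had 212 and 220 CPM in control FM against 699 and 651 in KO FM, 151 and 135 against 359 and 355 in EtOH, and 179 and 174 against 552 and 508 in DHT. CRAT, FBP2, PIPOX, PLD1, CEL, GGT1 and CERS4 also fell in this group. SPOCK2, a secreted proteoglycan outside the groups, had 5.15 and 5.10 CPM in control EtOH against 17.2 and 18.6 in KO EtOH.

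Phosphoinositide signalling had 2 members with opposing textbook roles: INPP4B, a phosphatase that removes a phosphate from phosphatidylinositol bisphosphate, and PIK3AP1, an adaptor that recruits phosphoinositide kinase. Among cytoplasmic kinases and adaptors, PTK6 and SRMS are related non-receptor tyrosine kinases, and PTK6 had 6.85 and 7.32 CPM in control EtOH against 15.3 and 16.3 in KO EtOH. EFS, an adaptor of Src kinases, had 0 counts in both control FM libraries against 3.25 and 3.25 CPM in KO FM, which is at least 25-fold higher than 3 counts in a library. Of the homeodomain factors DLX5, PKNOX2, SIX2 and POU2F3, DLX5 had the highest folds, between 5.74 and 9.32. A pseudogene of an adiponectin receptor gene, ADIPOR1P2, had 1 count in all 6 control libraries together and between 24 and 100 counts in each KO library.

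**Figure D2:**
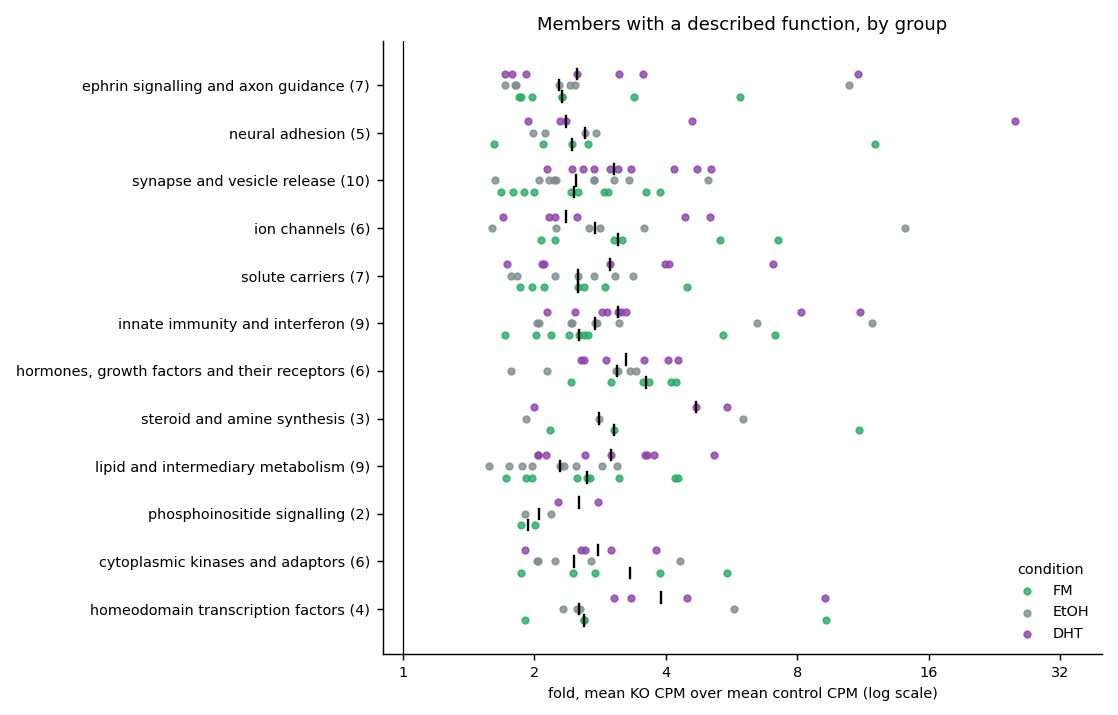
Fold of KO over control (ratio of mean CPM, log axis) for the 74 members with a described role, in 12 groups with their size in brackets. Each point is a member in FM (green), EtOH (grey) or DHT (purple), and each black tick the median. EFS in all 3 conditions and EGFLAM in EtOH are not drawn, as they had 3 or fewer control counts, but they enter the medians. Folds of most groups lie between 1.6 and 5, and single genes such as EPHA3, MYD88, HERC6, CYP11A1 and STAC stand to the right of their group.

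Members were 1.17% of all 13624 genes, a share at which lists as short as the following mostly hold few or none. No members were found among the 28 measured genes of the Hsp70, Hsp90 and cochaperone list, 28 cell cycle genes, 18 p53 targets, 13 NRF2 targets, 26 TGF-beta and BMP genes, 17 epithelial genes and 6 mesenchymal genes. HSPA1L, an Hsp70 gene outside that list and named here after its values were seen, was a member, with 1.21 and 1.71 CPM in control EtOH against 3.02 and 2.64 in KO EtOH. None of 411 measured zinc finger genes named ZNF was a member, while 5 of them were in the set lower in KO cells.

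The members were next followed by their response to DHT, tested with DESeq2 across all genes. In control cells DHT lowered 54 and raised 15 of the 159 (adjusted p of at most 0.05 and at least 1.5-fold), where 6.10% of the 13624 genes were lowered and 6.95% raised. As shares of the members these were 34.0% lowered and 9.43% raised. In KO cells DHT lowered 35 (22.0%) and raised 16 (10.1%), where 3.65% of all measured genes were lowered and 5.07% raised. The 136 members below 20 CPM gave 35.3% lowered in control cells and 23.5% in KO cells, and the 5913 measured genes of that abundance gave 10.6% and 6%. DHT changed the median member by a log2 of -0.37 in control and by -0.26 in KO cells, against a median close to 0 for all measured genes (-0.0045 and -0.0041). The 61 genes lower in KO cells had the opposite lean, with 18 raised and 6 lowered by DHT in control cells and 14 raised and 6 lowered in KO cells. Members were hence lowered more often than raised by DHT in both lines. The 69 members called in control cells became 40 in a fit of the control EtOH and DHT samples alone, 31 of them lowered. The 51 called in KO cells became 30 without KO EtOH replicate 2 and 31 without KO DHT replicate 1, with 21 lowered each time.

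**Figure D3:**
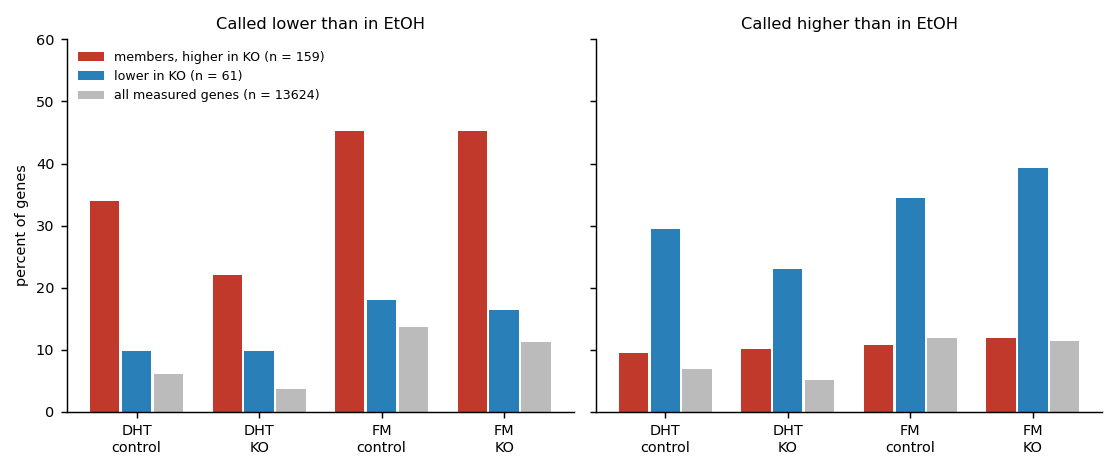
Percent of genes called lower (left) or higher (right) than in EtOH for DHT and for FM in each line, by DESeq2 at adjusted p of at most 0.05 and at least 1.5-fold. Red bars are the 159 members, blue bars the 61 genes lower in KO, and grey bars all 13624 measured genes, and bars start at 0. The red bars stand above the grey ones on the left in all 4 comparisons, from 22.0% to 45.3% of the members, while on the right they lie between 9.43% and 11.9%.

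The same members answered in the same direction in both lines. DHT lowered 31 in both lines and raised 12 in both, and no member was lowered in the one and raised in the other. A further 23 were lowered in control cells without passing the test in KO cells. All 23 had a negative change in KO cells, 6 of them with an adjusted p of at most 0.05 but less than 1.5-fold. In KO cells alone, 4 were lowered and 4 raised, and 3 were raised in control cells alone. For the 54 genes lowered in control cells, the median change was -1.16 (log2) there and -0.77 in KO cells, where the genes were chosen for their change in control cells. With DHT, the KO level stayed above the level that control cells had without hormone for 147 of the 159 members, and for 42 of these 54. The rule held KO above control in both DHT and EtOH. Members that DHT did not lower far therefore have this order by selection, and the count is a description.

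**Figure D4:**
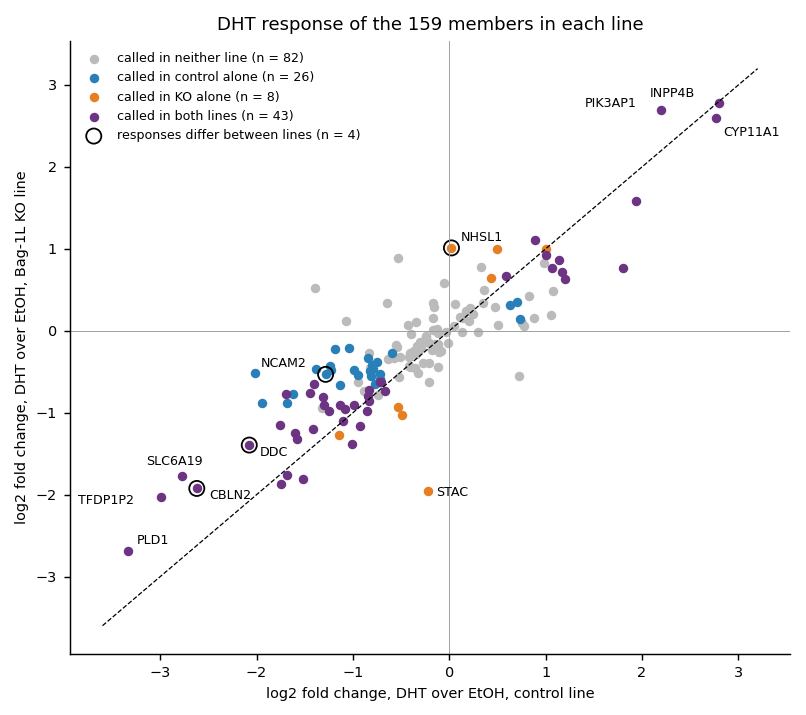
log2 fold change of DHT over EtOH in control cells (x axis) and in KO cells (y axis) for the 159 members, fitted with DESeq2. Colours mark in which line the change passed the test, open circles mark the 4 members whose responses differed between lines, and the dashed line marks equal responses. Points run along the dashed line from PLD1 at the lower left to INPP4B at the upper right, and NHSL1 and STAC lie away from it.

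The difference between the DHT responses was tested as an interaction. It is the difference of 2 comparisons that the rule used, although the rule set no direction for it. The number of members that passed is therefore a description, and no conclusion is drawn from its share against all genes. Of 145 members with an adjusted p, 4 passed, each with the larger value in KO cells, where 0.207% of 13016 measured genes tested passed in that direction and 0.192% in the other. They were CBLN2, DDC, NCAM2 and NHSL1. CBLN2 had 247 and 240 CPM in control EtOH and 36.3 and 36.03 in control DHT. In KO cells it had 403 and 388 with EtOH and 98.5 and 99.3 with DHT. DHT lowered it by a log2 change of -2.62 ± 0.09 (SE) in control cells and -1.92 ± 0.09 in KO cells, a difference of 0.70 ± 0.13 (adjusted p = 8.54e-05). DHT thus lowered the gene in both lines, and less far in the KO line.

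DDC changed by -2.08 ± 0.12 in control and -1.40 ± 0.11 in KO cells, a difference of 0.68 ± 0.17 (adjusted p = 0.0153). Its level with DHT in KO cells, 102 and 97.8 CPM, was about that of control cells without hormone. NCAM2 changed by -1.28 ± 0.12 in control and -0.53 ± 0.12 in KO cells, a difference of 0.75 ± 0.17 (adjusted p = 0.00347). NHSL1, which codes for a regulator of cell migration of the Nance-Horan family, behaved otherwise. It had 13.4 and 12.8 CPM in control EtOH and 13.7 and 10.7 in control DHT. In KO cells it had 28.7 and 28.8 with EtOH and 56.1 and 53.9 with DHT. Its log2 change was 0.02 ± 0.14 in control (adjusted p = 0.950) and 1.01 ± 0.12 in KO cells (adjusted p = 1.89e-14), a difference of 0.99 ± 0.19 (adjusted p = 8.54e-05). The calls for DDC and NCAM2 were lost with edgeR's quasi-likelihood test (adjusted p = 0.139 and 0.0745), and a fit of the 8 EtOH and DHT samples alone kept NHSL1 and lost the other 3. Leaving out KO EtOH replicate 2 ended the call for CBLN2 (adjusted p = 0.165). Leaving out KO EtOH replicate 1 or 2 or KO DHT replicate 1 ended that for NCAM2 (adjusted p = 0.153, 0.248 and 0.145). For DDC the call was lost without any 1 of 6 of the 8 libraries, and kept without control EtOH replicate 1 or control DHT replicate 2. The direction stayed the same for all 4 genes in each of these fits.

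**Figure D5:**
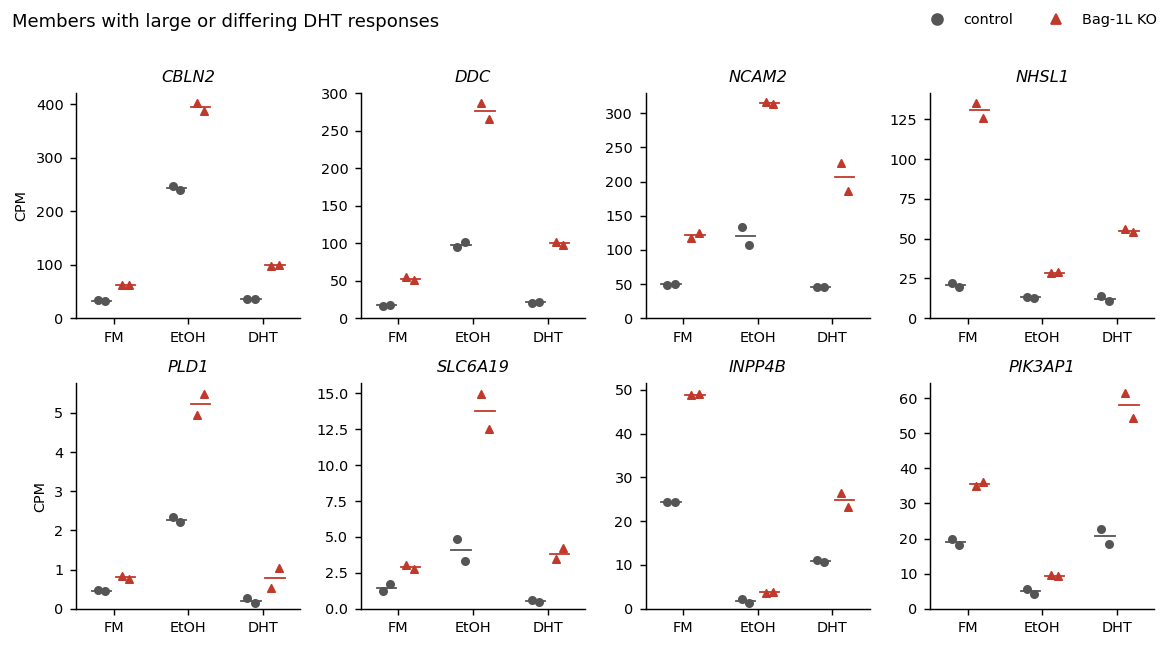
CPM of 8 members in FM, EtOH and DHT on linear axes that start at 0, with control samples as grey circles, KO samples as red triangles and means of 2 samples as bars. CBLN2, DDC, NCAM2, PLD1 and SLC6A19 are highest in EtOH in both lines, and INPP4B and PIK3AP1 are lowest in EtOH in both lines. NHSL1 is highest in FM in both lines and lies between 10.7 and 22.3 CPM in every control sample. Its KO values are 136 and 126 CPM in FM and 56.1 and 53.9 CPM in DHT.

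Among the other members that DHT lowered, the largest changes in control cells were those of PLD1, a phospholipase that makes phosphatidic acid, the pseudogene TFDP1P2, SLC6A19 and CBLN2. PLD1 had 2.34 and 2.22 CPM in control EtOH and 0.269 and 0.147 in control DHT. In KO cells it had 4.95 and 5.49 with EtOH and 0.527 and 1.03 with DHT. Its log2 changes were -3.33 ± 0.55 (adjusted p = 4.39e-08) and -2.69 ± 0.40 (adjusted p = 4.83e-10). SLC6A19 changed by -2.77 ± 0.36 in control (adjusted p = 9.58e-13) and -1.77 ± 0.25 in KO cells (adjusted p = 8.54e-11), and the difference did not pass (adjusted p = 0.875). STAC was among the 4 largest falls in KO cells, with 9.80 and 9.26 CPM in EtOH and 2.01 and 2.66 in DHT (-1.96 ± 0.30, adjusted p = 3.54e-09). In control cells it had 0.725 and 0.623 CPM in EtOH and 0.691 and 0.367 in DHT, and the difference of the responses was -1.73 ± 0.54 (adjusted p = 0.186). COLEC12, GPER1, PLA2G2A, SPOCK2 and SIX2 were lowered in both lines, COLEC12 by -1.69 ± 0.21 and -1.76 ± 0.18. By group, 6 of 9 lipid and intermediary metabolism genes, 4 of 9 immune genes and 4 of 10 synaptic genes were lowered in control cells, and 3, 2 and 2 of them in KO cells.

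The 12 members raised in both lines were INPP4B, CYP11A1, PIK3AP1, FAR2P4, FAR2P1, FAR2P2, IGF1, B3GALT4, POTEI, TMEFF2, FURIN and a long noncoding RNA (ENSG00000223969). INPP4B had 2.13 and 1.32 CPM in control EtOH and 11.1 and 10.7 in control DHT. In KO cells it had 3.65 and 3.93 with EtOH and 26.4 and 23.1 with DHT. Its log2 changes of 2.80 ± 0.21 (adjusted p = 7.21e-39) and 2.78 ± 0.17 (adjusted p = 1.14e-56) differed by -0.01 ± 0.27. PIK3AP1 changed by 2.19 ± 0.16 (adjusted p = 3.3e-39) and 2.69 ± 0.15 (adjusted p = 6.58e-72), from 5.597 and 4.32 to 22.8 and 18.6 CPM in control cells and from 9.55 and 9.38 to 61.4 and 54.5 CPM in KO cells. CYP11A1 changed by 2.77 ± 0.63 and 2.60 ± 0.34, the former from levels close to the floor. TMEFF2, a transmembrane protein abundant in prostate, had 69.0 and 71.0 CPM in control EtOH and 124 and 131 in control DHT. In KO cells it had 141 and 147 with EtOH and 261 and 257 with DHT. Its changes of 1.001 ± 0.10 and 0.92 ± 0.10 left a fold between the lines of 2.01 to 2.06 in every condition. IGF1 changed by 1.14 ± 0.29 (adjusted p = 0.000896) and 0.87 ± 0.23 (adjusted p = 0.00172). FAR2P1, FAR2P2, FAR2P4 and POTEI have near copies in the genome, and their counts are uncertain. Without KO DHT replicate 1 the call for FAR2P4 in KO cells was lost (adjusted p = 0.0714). FGFR3 and MCCC2 passed the test in KO cells and not in control cells, with rises of 0.99 ± 0.24 (adjusted p = 0.000766) and 0.64 ± 0.09 (adjusted p = 1.57e-11). MCCC2 changed by 0.44 in control cells with an adjusted p of 2.12e-05, below 1.5-fold.

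FM was compared with EtOH in the same way. This comparison shares the EtOH samples with the DHT comparison, so the counts are given side by side only. FM lowered 72 and raised 17 of the 159 members in control cells, where 13.6% of all measured genes were lower and 11.8% higher. In KO cells it lowered 72 and raised 19, where 11.3% were lower and 11.4% higher. Both lines lowered 61 members and both raised 16, and none went opposite ways. Of measured genes below 20 CPM, 20.7% were lower in control and 18.2% in KO cells, against 44.9% and 45.6% of the 136 members. The largest falls were those of FBP2, a muscle type fructose bisphosphatase, and PLA2G2A. FBP2 had 3.34 and 2.65 CPM in control EtOH and 0.173 and 0.0754 in control FM, and 8.31 and 8.82 in KO EtOH and 0.421 and 0.623 in KO FM. Its log2 changes were -4.56 ± 0.65 (adjusted p = 4.06e-11) and -3.99 ± 0.38 (adjusted p = 9.58e-24). PLA2G2A changed by -3.77 ± 0.34 and -3.32 ± 0.22. INPP4B and CYP11A1 had the largest rises, with INPP4B at 3.89 ± 0.20 in control and 3.75 ± 0.17 in KO cells. No response passed in any of the 4 comparisons of DHT or FM with EtOH for 41 members.

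By position, members were spread over all chromosomes analysed except Y and the mitochondrial genome. Chromosome 3 had the highest share, with 14 of 786 measured genes (1.78%), and chromosome 15 the lowest, with 3 of 480 (0.625%). No run of 3 or more members next to each other was found. Another member lay within 100000 bases for 25 of 158 members with a position, and for 0 of 60 genes lower in KO cells. Within 1000000 bases these were 57 and 6. A larger set has more near neighbours by its size alone, and sets of equal size were not counted. The counts of the 2 sets can therefore not be compared. The 11 pairs of adjacent members held PTK6 and SRMS on chromosome 20, at 62159354 to 62179102 (GRCh37), with EEF1A2, the muscle and neuron form of a translation elongation factor, 28762 bases away. They also held SLC12A7 and SLC6A19 on chromosome 5 (1050499 to 1225226), MMRN2 and SNCG on chromosome 10 (88695297 to 88729238), and FSD1 and STAP2 on chromosome 19 (4304595 to 4342783). PARP9 and DTX3L overlap on opposite strands of chromosome 3 (122246771 to 122294050), and so do MMRN2 and SNCG. Because the strand setting of the counting is not given in the sources used here, reads of such overlapping partners cannot be fully told apart. In all, 44 members overlap another measured gene, 37 of them on the opposite strand. GPER1, NHSL1, PPFIA2, SLC16A3 and TMEFF2 are among these 44. For 15 members, more than 25% of the 50-base words of their transcripts also occur in annotated transcripts of another gene. That gene may be a copy elsewhere, or may overlap on the same strand, as AMT does for NICN1. Reads of such words may not be counted or may come from the other gene. The share was 100% for FAR2P1, CCDC144NL and TP53TG3C, 94.6% for NICN1, 91.6% for FAR2P2, 85.0% for FAR2P4, 58.3% for GGT1, 55.1% for POTEI, 29.8% for IFITM1 and 27.3% for CEL.

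The member promoters held fewer CpG dinucleotides. Over the 113 matched promoters the median was 20 CpG per 300 bases, against 27 for the 10307 measured genes, and 31.0% against 10.6% had fewer than 10. Among genes below 20 CPM the shares were 33.0% of members and 17.4% of measured genes, so part of this difference was seen between scarce and abundant genes in general. The GC content was close, with medians of 64.7% and 65.7%. A full palindromic androgen response element, spelled as AGAACA, any 3 bases and the reverse complement TGTTCT, was not found in any of these windows, of members or of measured genes, and the half-site AGAACA alone was in 8.85% of member promoters and 8.50% of all. The AP-1 site TGANTCA was in 3.54% and 4.06%, and the cAMP element TGACGTCA in 0.885% and 3.32%. These windows do not cover enhancers.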

How the data were processed

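Poly(A) RNA of the 12 samples was made into stranded TruSeq libraries by the authors, mapped to GRCh37 with TopHat2 2.0.11 after CASAVA 1.7 and counted per Ensembl gene with HTSeq 0.5.3p3, versions per the submitters' processing notes. The values used are these read counts as deposited, not normalized, for 63677 gene identifiers, with 5 tallies of uncounted reads left out. The strand setting, the overlap mode and the Ensembl release are not given in the sources used here. HTSeq leaves out reads that map to several places, so genes with near copies are counted low. Reads outside genes, ambiguous or not unique were 26.9% to 31.5% of all rows. Floors cover counting error only.

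CPM was the count over the summed gene counts of a sample. Names and positions came from GENCODE 44 lifted to GRCh37 (55665 identifiers matched) and promoters from RefSeq (GRCh38.p14). Contrasts were fitted in DESeq2 1.42.0 (R 4.3.3) on all 12 samples, 1 coefficient per group, for 26156 genes with at least 10 counts in all, with Wald tests, Benjamini-Hochberg adjusted p of at most 0.05 and at least 1.5-fold. The fit and the member rule were tested on simulated data. Alternatives were edgeR 4.0.16 with TMM, TMM size factors, other filters, the compared groups alone, a replicate block, no fold minimum, and each library left out. Genes were named by a rule: widest gap between the lines, largest DHT changes, a differing DHT response, membership of a list or family, and nearness to the limit. Members outside it were named for their role after their values were seen. The members and all lists were chosen with earlier results of these data known. Some genes are not reported here.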

Additional observations from a re-analysis of the deposited data

Results flagged for a closer look

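The response to DHT differed between control and KO cells, by the interaction test of DESeq2, for 4 of 145 members, each with 2 samples per group. The log2 difference of the responses, KO minus control, was 0.70 ± 0.13 (SE) for CBLN2 (adjusted p = 8.54e-05), 0.68 ± 0.17 for DDC (adjusted p = 0.0153), 0.75 ± 0.17 for NCAM2 (adjusted p = 0.00347) and 0.99 ± 0.19 for NHSL1 (adjusted p = 8.54e-05). For CBLN2, DDC and NCAM2 the change with DHT was negative in both lines and went less far in the KO line. That of NCAM2 in the KO line was below 1.5-fold and was not called. For NHSL1 the KO line alone was raised. At an unadjusted p under 0.05, 15 members had the larger value in KO cells and 3 in control cells. The share of all measured genes at that limit was not taken. Both comparisons in this difference were used to choose the members, so no conclusion is drawn from this lean or from the number that passed. NHSL1 overlaps HEBP2 and an antisense gene on the opposite strand. Groups of 2 samples were too small for a search for outlying samples.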

How the results depend on the processing

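The number of members was 159 with totals as scale, 130 with DESeq2 size factors and 134 with TMM, all of them among the 159. A fold of 2 in the rule gave 51, a mean of at least 5 CPM gave 76 and no CPM minimum gave 246. Leaving out each library in turn gave 168 to 207 members, since a lone replicate is easier to pass. For DHT in control cells the called members went from 69 to 40 with the compared groups alone, and to 52 to 61 with a library left out. For DHT in KO cells 51 became 30 to 39 with a library left out. The lowest counts came without KO EtOH replicate 2 (30) and without KO DHT replicate 1 (31). For the difference in DHT response 4 became 2 with edgeR and 1 with the compared groups alone, and 1 to 6 with a library left out. The lowest values were 1 without KO EtOH replicate 2 and 2 without KO EtOH replicate 1 or KO DHT replicate 1, and 2 of the 6 without control EtOH replicate 1 had the larger value in control cells. FM against EtOH gave 70 to 83 in control and 77 to 83 in KO cells. The cause of these losses was not tested beyond the smaller number of samples. A fit without a library leaves a lone sample that is assumed to vary like the other groups.

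Whether numbers 1 and 2 paired the samples could not be told, since the correlations differed in sign between pairs of groups. Deviations of same-numbered samples from their group means correlated at a mean r of 0.0286 over 15 pairs of groups (-0.446 to 0.704, over 0.1 in 6). With the replicate block the called members were 69 and 50 for DHT in control and KO cells, 4 for the difference, and 88 and 90 for FM. Over named genes, DHT responses and alternatives, 269 of 286 combinations kept direction and call, 16 kept direction and lost the call, 1 gained it and 0 reversed. Depth limits the scarce members: 3 counts are up to 0.144 CPM, close to control levels of CYP11A1, EFS, EGFLAM and ADIPOR1P2.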

Other observations

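Further members, named after their values were seen, fall outside the groups described. EEF1A2, the elongation factor form of muscle and neurons, had the highest mean CPM of the members, with 301 and 377 CPM in control EtOH against 790 and 766 in KO EtOH, and its change with DHT did not pass in either line. FBXL17, an F-box protein of a ubiquitin ligase, had 223 and 176 CPM against 546 and 552, and it lies next to EFNA5 on chromosome 5. TPBG, the oncofetal trophoblast glycoprotein, had 0.563 and 0.981 CPM in control FM against 4.66 and 3.92 in KO FM. AQP12B, an aquaporin with a near copy (37.5% of its words shared), changed with DHT by a log2 of -2.02 in control cells (adjusted p = 0.000763) and by -0.51 in KO cells (adjusted p = 0.332), and the difference did not pass.

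Noncoding members held 5 of 130 measured LINC genes (3.85%) and 4 of 296 measured antisense genes (1.35%). Over all 13624 genes the share was 1.17%, so that of the antisense genes was near the share of all genes. MALINC1 had 12.4 and 11.8 CPM in control EtOH against 39.8 and 35.6 in KO EtOH, and DHT lowered it in both lines, by -1.01 (adjusted p = 1.54e-07) and -1.38 (adjusted p = 3.8e-17). IGIP, an immunoglobulin-inducing peptide gene 16663 bases from MALINC1, had 31.3 and 24.5 CPM against 72.9 and 66.6 and was lowered by -0.93 (adjusted p = 3.27e-10) and -1.16 (adjusted p = 3.58e-18).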
